A study of Mus musculus with 6 samples.

Results

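The genes described are 35 genes of the peroxisome, 13 peroxins (Pex genes, which build the organelle and import its proteins) and 22 genes of enzymes, transporters and peroxide-removing proteins, out of 13931 genes in the deposited tables. They were taken by gene symbol from a list, and all 35 were found. RNA sequencing libraries were made from preparations of alveolar epithelial type 2 cells (AT2 cells, the surfactant-making cells of the lung) of C57BL/6 mice. There were 3 libraries from mice given bleomycin repeatedly at 1 U/kg and 3 from mice given PBS repeatedly, 1 library for each of 3 mice a group by the series design. Bleomycin cuts DNA and is given to rodents as a model of lung injury. Age, route, number and spacing of doses, harvest time and the way AT2 cells were isolated are not stated in the sources used here.

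The peroxisome is a small organelle that shortens very long and branched fatty acids, starts the synthesis of ether lipids such as plasmalogens, and breaks down the hydrogen peroxide that its oxidases make. Peroxins insert its membrane proteins and carry enzymes through the membrane, mostly by recognising a short signal at the end of the enzyme. AT2 cells are rich in peroxisomes, and their lamellar bodies hold surfactant lipids that include plasmalogens.

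Values are FPKM, a measure of fragments that corrects for transcript length and for library size, summed over the transcripts of a gene. The listed FPKM summed to between 259607 and 272315 in bleomycin libraries and between 253146 and 300697 in PBS libraries, and the read depth behind each value is unknown. Apart from Cebpa, the defining markers of AT2 cells were present in all 6 libraries. Of 15 markers, 11 fell and none rose, and their summed level was 4110 to 10740 FPKM in bleomycin libraries and 19183 to 27648 FPKM in PBS libraries. The marker Cebpa was listed at 0 in all PBS libraries. Of 15 leukocyte markers 14 rose, with sums of 1076 to 1460 FPKM in bleomycin libraries and 31.0 to 48.5 FPKM in PBS libraries. All 10 endothelial markers rose, with sums of 337 to 618 FPKM in bleomycin libraries and 36.2 to 41.6 FPKM in PBS libraries, although Cldn5 was listed at 0 in each PBS library. Among the markers that rose, Cd3e, Cd3d, Lck, Itgam, Emcn and Cldn5 lay under 1 FPKM in every PBS library. They reached the 1 FPKM needed for testing only in bleomycin libraries, so they could not have counted as a fall. Of 10 fibroblast and smooth muscle markers 4 fell, with sums of 478 to 1153 FPKM in bleomycin libraries and 1863 to 2583 FPKM in PBS libraries. Of 10 AT1 markers 1 fell, with sums of 318 to 519 FPKM in bleomycin libraries and 555 to 751 FPKM in PBS libraries. Their log2 fold changes lay above 0 for 5 and below 0 for 5, with a median of -0.03. Of 10 club and ciliated cell markers 2 rose, with sums of 2557 to 3935 FPKM in bleomycin libraries and 2462 to 10556 FPKM in PBS libraries. Scgb1a1 alone had 9716 FPKM in PBS replicate 1. Of the log2 fold changes of these 10 markers 7 lay above 0 and 3 below, with a median of 0.89. In such bulk samples, fewer cells of a type and less RNA per cell cannot be told apart, and the part that these shifts have in the results below was not tested.

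Setting bleomycin against PBS asks how peroxisomal transcripts of these preparations differ after repeated exposure. With 1 library a mouse, p-values measure the spread between these mice. In bleomycin libraries 5 of the 35 members fell and 1 rose. Acoxl, an acyl-CoA oxidase-like gene, and Cat, the gene of catalase, fell most among those past the threshold, and Hsd17b4, Amacr and Pex6 fell less. Acox3, a peroxisomal acyl-CoA oxidase, rose. Changes were tested on log2(FPKM + 1) with limma over 12326 genes and called at a Benjamini-Hochberg adjusted p under 0.05. Of all tested genes 7.34% fell and 15.2% rose, so 5 of 35 members fell against that background of 7.34%, and 1 of 35 rose against 15.2%. The groups' values did not overlap and lay lower in bleomycin libraries for 14 of 35 members, beside 16.4% of all tested genes, and lay higher for 1 member, beside 27.2%. All 35 members passed the filter on low values, each reaching 1 FPKM in 5 or all 6 libraries, and none was listed at 0 anywhere. The split of calls over all genes moved with the scaling: with equal medians (every library brought to 1 common median), 11.5% of all genes fell and 12.0% rose, and with quantile normalization 11.7% fell and 11.6% rose. The median log2 fold change of all genes, 0.09, was then -0.07 and -0.08.

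**Figure D1:**
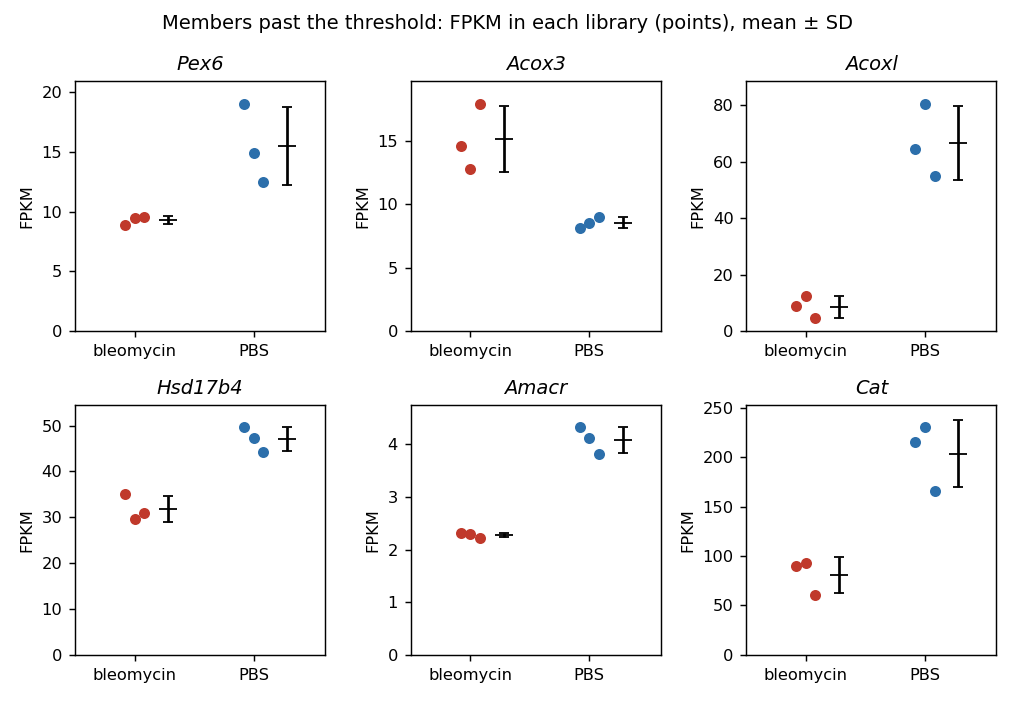
FPKM of the 6 members past the threshold, a panel each, with bleomycin libraries in red on the left and PBS libraries in blue on the right (points), and the mean ± SD in black (n = 3 each). Bleomycin values lie below all PBS values for Pex6, Acoxl, Hsd17b4, Amacr and Cat and above them for Acox3.

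Among the 13 peroxins 1 fell and none rose, beside the 7.34% and 15.2% of all genes. The median log2 fold change of the peroxins was -0.41, against 0.09 for all tested genes. All 13 fold changes were below 0, from -1.17 upward, although Pex5 and Pex2 changed sign with libraries scaled to equal totals, at 0.02 and 0.01. Below 0 lay 43.9% of all tested genes. The 22 enzymes and transporters had a median of -0.20, with 14 values below 0 and 8 above, and 4 fell and 1 rose. The spread of fold changes was wider among the enzymes, from -2.88 to 0.74, than among the peroxins. Both medians moved with the processing. The peroxin median was -0.22 with a pseudocount of 5 and -0.17 with a filter at 5 FPKM, and the enzyme median -0.10 and 0.00. The filter at 5 FPKM dropped Pex10, Pex26, Pex11a and Pex11g from the peroxins. It dropped Abcd2, Ehhadh, Acaa1b, Amacr, Pecr and Hacl1 from the enzymes and transporters. The members left kept their fold changes there, so those medians moved because they cover fewer genes. With equal medians the peroxins stood at -0.59 and the enzymes at -0.35, and with quantile normalization at -0.56 and -0.40. The difference between the medians, -0.21, was not tested.

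The median log2 level of the peroxins was 3.19, 2.98 and 3.12 in bleomycin libraries and 3.49, 3.15 and 3.51 in PBS libraries. That of the enzymes and transporters was 3.91, 3.80 and 3.49 in bleomycin libraries and 3.37, 3.57 and 3.12 in PBS libraries. Both sets of medians overlapped between the groups. The middle level of the enzymes thus averaged higher in bleomycin libraries, opposite in sign to the median of their fold changes.

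Peroxins were also expressed in a narrower range of levels. Their group means lay between 1.5 and 11.4 FPKM in bleomycin libraries and between 2.34 and 15.5 FPKM in PBS libraries. Those of the enzymes and transporters lay between 2.28 and 81.0 FPKM in bleomycin libraries and between 3.25 and 204 FPKM in PBS libraries. For 3 peroxins and 4 enzymes both group means were under 5 FPKM, where adding 1 to each value shrinks the fold change most.

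**Figure D2:**
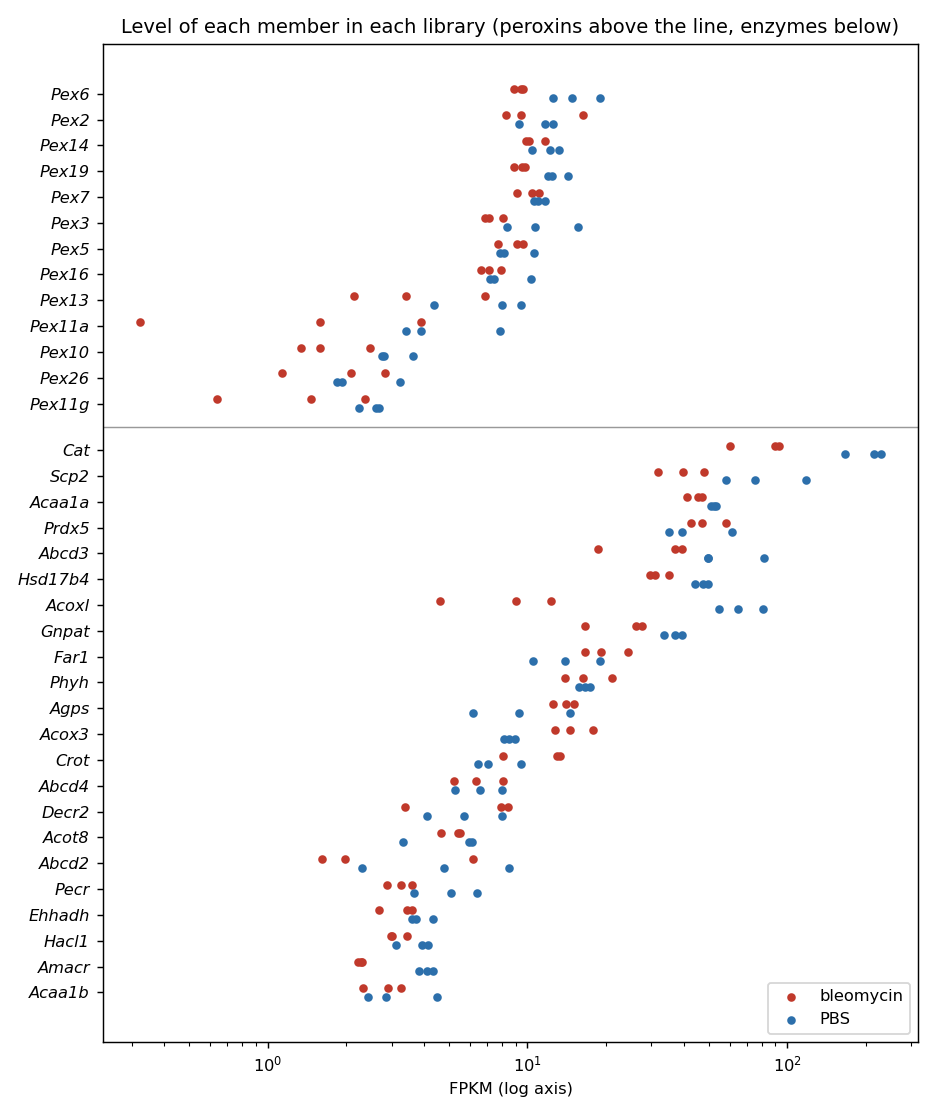
FPKM of each of the 35 members in each library on a log axis, with peroxins above the line and enzymes and transporters below it, bleomycin points in red above the PBS points in blue. Cat, with 166 to 230 FPKM in PBS libraries, is the most abundant member, and Pex11a spreads most widely among the bleomycin libraries, from 0.322 to 3.89 FPKM.

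Membrane assembly begins with Pex3, Pex16 and Pex19, which place proteins in the peroxisomal membrane. Pex19, the carrier of new membrane proteins, measured 8.91, 9.55 and 9.82 FPKM in bleomycin libraries and 14.3, 12.0 and 12.4 FPKM in PBS libraries. The groups did not overlap, but the change of -0.41 ± 0.15 (log2 fold change ± SE) did not pass (limma adjusted p = 0.0937). It passed with equal medians and with quantile normalization, at -0.59 and -0.56. Pex3, the membrane anchor of Pex19, did not overlap between the groups either, at 6.88 to 8.09 FPKM in bleomycin libraries and 8.31 to 15.7 FPKM in PBS libraries, and did not pass. Pex16 had 6.62 to 7.91 FPKM in bleomycin libraries and 7.18 to 10.3 FPKM in PBS libraries.

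The import machinery differed little between the groups at its entry. Pex7, the receptor of enzymes with an amino-terminal signal, measured 11.1, 10.4 and 9.13 FPKM in bleomycin libraries and 11.7, 10.6 and 11.0 FPKM in PBS libraries. Pex5, the receptor of the more common carboxy-terminal signal, averaged 8.82 ± 1.02 FPKM in bleomycin libraries and 8.88 ± 1.52 FPKM in PBS libraries (SD, n = 3 each). Both genes overlapped between the groups. Pex14, where loaded receptors dock, measured 10.1, 11.7 and 9.91 FPKM in bleomycin libraries and 13.2, 12.2 and 10.4 FPKM in PBS libraries, again with overlap. Its docking partner Pex13 varied more, with 2.16 to 6.88 FPKM in bleomycin libraries and 4.36 to 9.43 FPKM in PBS libraries.

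The receptors are then tagged with ubiquitin and pulled out of the membrane for reuse. Pex6, an ATPase that extracts them, measured 8.91, 9.42 and 9.58 FPKM in bleomycin libraries and 19.0, 14.9 and 12.5 FPKM in PBS libraries. Every bleomycin value lay below every PBS value, and the 3 bleomycin values were close together. Pex6 (ENSMUSG00000002763.16, mm10 chromosome 17, 46711463 to 46725541) changed by -0.66 ± 0.19 (limma adjusted p = 0.0467), the only peroxin to pass. With 1 library left out, Pex6 passed only without PBS replicate 3 (otherwise limma adjusted p 0.0823 to 0.121). It did not pass with the highest transcript of each gene in place of the sum (0.0608). Pex6 has 1 listed transcript, so its own values and fold change were the same there. Pex26, which holds Pex6 at the membrane, had 1.14 to 2.84 FPKM in bleomycin libraries and 1.85 to 3.22 FPKM in PBS libraries. Pex2, a ring-finger ubiquitin ligase of the membrane, measured 9.44, 8.29 and 16.3 FPKM in bleomycin libraries and 12.5, 9.31 and 11.7 FPKM in PBS libraries, so bleomycin replicate 3 was the highest of all 6. Its partner ligase Pex10 had 1.35 to 2.49 FPKM in bleomycin libraries and 2.75 to 3.63 FPKM in PBS libraries, without overlap and without passing (-0.55 ± 0.21, limma adjusted p = 0.114). Pex10 passed with quantile normalization, at -0.85.

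Pex11a and Pex11g belong to the family that elongates peroxisomes before they divide. Pex11a measured 3.89, 0.322 and 1.59 FPKM in bleomycin libraries and 3.42, 7.83 and 3.88 FPKM in PBS libraries. Its fold change of -1.17 ± 0.51 was the lowest of the peroxins, and the groups overlapped (limma adjusted p = 0.150). Pex11g had 0.642 to 2.38 FPKM in bleomycin libraries and 2.24 to 2.69 FPKM in PBS libraries.

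**Figure D3:**
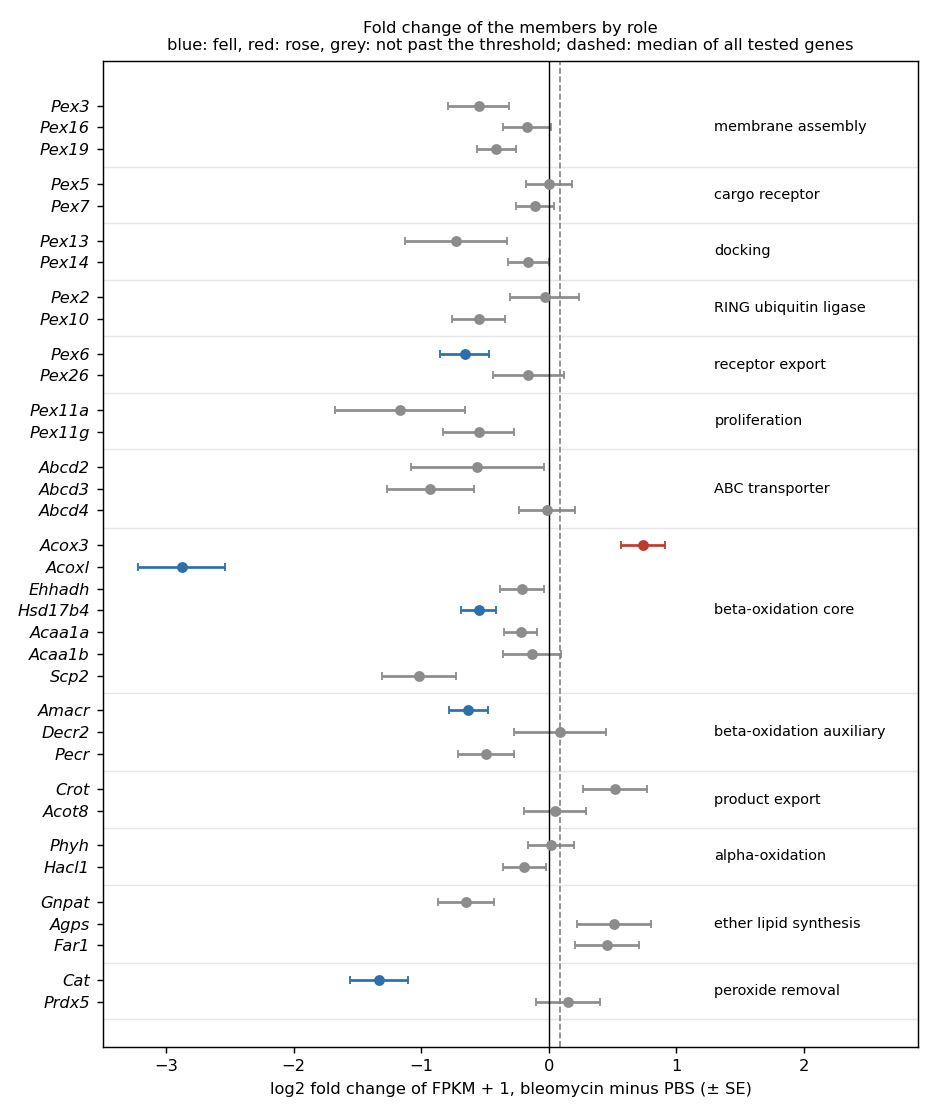
Log2 fold change of FPKM + 1, bleomycin minus PBS, with its SE for each member, grouped by role, in blue where the gene fell, red where it rose and grey where it did not pass. The dashed line is the median of all tested genes at 0.09. Acoxl at -2.88 and Cat at -1.33 lie farthest to the left, and Acox3 at 0.74 farthest to the right.

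Fatty acids enter the peroxisome through half-transporters of the ABCD family. Abcd3, which carries branched fatty acids and bile acid precursors, was the most abundant, with 36.9, 39.5 and 18.7 FPKM in bleomycin libraries and 49.3, 49.4 and 81.0 FPKM in PBS libraries. The groups did not overlap, but with a spread of that size the change of -0.93 ± 0.34 did not pass (limma adjusted p = 0.0985). Abcd2, a carrier of very long unsaturated fatty acids, overlapped, at 1.62 to 6.19 FPKM in bleomycin libraries and 2.31 to 8.51 FPKM in PBS libraries. Abcd4, which in contrast to the others acts in the lysosome in vitamin B12 handling, averaged 6.54 ± 1.43 FPKM in bleomycin libraries and 6.60 ± 1.37 FPKM in PBS libraries (SD, n = 3 each).

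In peroxisomal beta-oxidation an acyl-CoA oxidase takes the first step, a bifunctional enzyme the next steps, and a thiolase cuts off acetyl-CoA. Acoxl measured 9.03, 12.3 and 4.61 FPKM in bleomycin libraries and 64.5, 80.5 and 54.8 FPKM in PBS libraries. The lowest PBS value was well above the highest bleomycin value, and bleomycin replicate 3 was the lowest of all. Acoxl (ENSMUSG00000027380.10, mm10 chromosome 2, 127854628 to 128123873) averaged 8.64 ± 3.85 FPKM in bleomycin libraries and 66.6 ± 13.0 FPKM in PBS libraries (SD, n = 3 each). The change was -2.88 ± 0.34 (limma adjusted p = 0.00176), and it passed under all 17 alternatives, from -3.16 to -2.42. The 14 tested AT2 markers changed by -2.54 to -0.24, all less than Acoxl. The SE ranges of Slc34a2 (-2.54 ± 0.39) and Etv5 (-2.43 ± 0.64) overlapped that of Acoxl, and a difference from them was not tested. Lyz2 (-0.24) and Fabp5 (-0.55) changed least, with 3508 FPKM of Lyz2 in bleomycin replicate 1 and 261 FPKM of Fabp5 in bleomycin replicate 3. Both are in the marker mean used next, and a mean without them was not computed. Against the mean log2 level of these 14 markers in the same library, Acoxl lay at -4.13, -3.49 and -4.04 in bleomycin libraries and at -2.81, -2.52 and -2.69 in PBS libraries. The relative levels did not overlap (mean difference -1.21, two-sided exact permutation p = 0.1, the smallest that 3 libraries against 3 allow). The other members that fell lay higher against the markers without overlap, with mean differences of 1.01 for Pex6, 1.12 for Hsd17b4, 1.04 for Amacr and 0.34 for Cat (exact permutation p = 0.1 each), so they fell less than the marker mean. These relative levels were computed after the values had been seen, for members that had passed. Their permutation p-values thus add no evidence beyond the fold changes.

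Acox3, an oxidase of branched fatty acids, went the other way. It measured 14.6, 12.8 and 17.9 FPKM in bleomycin libraries and 8.13, 8.49 and 8.99 FPKM in PBS libraries. Every bleomycin value lay above the tightly grouped PBS values. Acox3 (ENSMUSG00000029098.16, mm10 chromosome 5, 35583040 to 35613801) rose by 0.74 ± 0.17 (limma adjusted p = 0.0254). The call was lost without any 1 library but bleomycin replicate 2 (limma adjusted p 0.0510 to 0.0685), with equal medians (0.0645), with quantile normalization (0.0538) and with the highest transcript alone (0.0607). Of its 4 listed transcripts, Acox3-001 made up 71.1% of the gene's FPKM in bleomycin libraries and 77.3% in PBS libraries, with 10.9, 9.05 and 12.1 FPKM in bleomycin libraries and 6.65, 7.22 and 5.83 FPKM in PBS libraries. Acox3-006 made up 13.8% in bleomycin libraries and 7.62% in PBS libraries. Acox3-001 was thus also higher in every bleomycin library than in any PBS library. Exons of Acox3 overlap those of the antisense gene 4931431C16Rik by up to 473 bases in GENCODE M21, and no source used here says how strand was used in the quantification.

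The later steps of the cycle were lower or did not pass. Hsd17b4, the bifunctional enzyme of branched and very long chains, measured 35, 29.6 and 30.9 FPKM in bleomycin libraries and 49.6, 47.2 and 44.3 FPKM in PBS libraries. The groups were apart, and Hsd17b4 fell by 0.55 (log2 fold change -0.55 ± 0.14, limma adjusted p = 0.0356), with the call lost without any 1 of the 6 libraries (limma adjusted p 0.0502 to 0.119). Ehhadh, the other bifunctional enzyme, stood at 2.69 to 3.59 FPKM in bleomycin libraries and 3.59 to 4.35 FPKM in PBS libraries, with the groups all but touching. Acaa1a, the main peroxisomal thiolase, had 41.2 to 47.0 FPKM in bleomycin libraries and 50.7 to 53.1 FPKM in PBS libraries, without overlap and without passing (-0.22 ± 0.13, limma adjusted p = 0.283). Acaa1b, a near-identical copy whose reads may be split uncertainly with Acaa1a, had 2.34 to 3.25 FPKM in bleomycin libraries and 2.43 to 4.47 FPKM in PBS libraries.

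Scp2 encodes a thiolase of branched chains and, from an internal start, the sterol carrier protein alone. It measured 48.0, 39.7 and 31.8 FPKM in bleomycin libraries and 118, 75.3 and 58.2 FPKM in PBS libraries. The groups did not overlap, and PBS replicate 1 stood above the others. The change of -1.02 ± 0.29 narrowly missed the threshold (limma adjusted p = 0.0509), and passed with equal medians, quantile normalization, equal totals and library weights (0.0258 to 0.0460) and without PBS replicate 3 (0.0427). The longer of its transcripts, Scp2-001, held 85.9% of the FPKM in bleomycin libraries and 85.4% in PBS libraries, shares given for a gene chosen after its values were seen.

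Amacr, the racemase that readies branched acyl chains for the cycle, measured 2.31, 2.29 and 2.23 FPKM in bleomycin libraries and 4.32, 4.12 and 3.82 FPKM in PBS libraries. Both groups were tight and lay apart. Amacr (mm10 chromosome 15, 10981756 to 10996624) fell by 0.63 (log2 fold change -0.63 ± 0.15, limma adjusted p = 0.0282), and without any 1 of the 6 libraries the call was lost (limma adjusted p 0.0580 to 0.0851). Decr2, a reductase for unsaturated chains, measured 7.91, 3.39 and 8.39 FPKM in bleomycin libraries and 7.99, 4.09 and 5.71 FPKM in PBS libraries, with full overlap. Pecr, an enoyl-CoA reductase, had 2.87 to 3.60 FPKM in bleomycin libraries and 3.65 to 6.38 FPKM in PBS libraries, without overlap and without passing (-0.49 ± 0.22, limma adjusted p = 0.159). Pecr passed with quantile normalization, at -0.71.

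Neither gene of product export passed. Crot, which makes carnitine esters of shortened chains, measured 13.4, 13.0 and 8.09 FPKM in bleomycin libraries and 9.44, 7.04 and 6.47 FPKM in PBS libraries (0.52 ± 0.25, limma adjusted p = 0.179). Bleomycin replicate 3 lay among the PBS values. Acot8, a thioesterase, had 4.66 to 5.52 FPKM in bleomycin libraries and 3.32 to 6.11 FPKM in PBS libraries. In alpha-oxidation, which shortens phytanic acid, Phyh measured 21.1, 16.3 and 13.9 FPKM in bleomycin libraries and 17.4, 15.8 and 16.7 FPKM in PBS libraries, and the bleomycin values spanned the PBS values. Hacl1, the lyase of this route, had 2.98 to 3.43 FPKM in bleomycin libraries and 3.13 to 4.13 FPKM in PBS libraries.

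The genes of ether lipid synthesis did not move in a common direction, and none of the 3 passed. Gnpat, which attaches the first acyl chain, measured 27.7, 26.1 and 16.7 FPKM in bleomycin libraries and 36.9, 39.3 and 33.5 FPKM in PBS libraries. The groups did not overlap (-0.65 ± 0.22, limma adjusted p = 0.0796), and the gene passed with equal medians (-0.83). Agps, which exchanges that chain for a fatty alcohol, had 12.5 to 15.1 FPKM in bleomycin libraries and 6.15 to 14.6 FPKM in PBS libraries, with a fold change of 0.51 ± 0.29 (limma adjusted p = 0.259). Far1, the reductase that supplies the alcohol, had 16.7 to 24.3 FPKM in bleomycin libraries and 10.5 to 19.0 FPKM in PBS libraries, with 0.46 ± 0.25 (limma adjusted p = 0.230).

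Cat, which splits hydrogen peroxide, measured 89.8, 93.0 and 60.3 FPKM in bleomycin libraries and 215, 230 and 166 FPKM in PBS libraries. The lowest PBS value was above every bleomycin value, and bleomycin replicate 3 was the lowest. Cat (ENSMUSG00000027187.10, mm10 chromosome 2, 103453849 to 103485160) averaged 81.0 ± 18.0 FPKM in bleomycin libraries and 204 ± 33.3 FPKM in PBS libraries (SD, n = 3 each). It changed by -1.33 ± 0.23 (limma adjusted p = 0.00921) and passed under all 17 alternatives, from -1.52 to -1.13. The transcript Cat-001 made up 99.4% of its FPKM in bleomycin libraries and 99.2% in PBS libraries. Relative to the mean log2 level of the 14 AT2 markers of the same library, Cat lay at -0.95, -0.66 and -0.59 in bleomycin libraries and at -1.09, -1.02 and -1.11 in PBS libraries, and the marker mean itself changed by -1.67. Prdx5, a peroxiredoxin found in peroxisomes, mitochondria and the cytosol, had 42.5 to 58.3 FPKM in bleomycin libraries and 35 to 61.2 FPKM in PBS libraries.

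The start regions of Acoxl and Cat, the members whose fall passed in every alternative, and of Acox3, the member that rose, are shown to set their sequence beside the opposite changes. They span the start site (RefSeq, GRCm38.p6, the assembly of mm10), and lie at chr2:127854378-127854677, plus strand, chr2:103485104-103485403, minus strand, and chr5:35582784-35583083, plus strand. Capitals mark matches on either strand to short motifs. The GC box was searched as GGGCGG and the CCAAT box by the letters of its name. The TATA box was searched as TATAAA. The half-site of nuclear receptors such as the PPAR proteins was searched as AGGTCA.
Acoxl: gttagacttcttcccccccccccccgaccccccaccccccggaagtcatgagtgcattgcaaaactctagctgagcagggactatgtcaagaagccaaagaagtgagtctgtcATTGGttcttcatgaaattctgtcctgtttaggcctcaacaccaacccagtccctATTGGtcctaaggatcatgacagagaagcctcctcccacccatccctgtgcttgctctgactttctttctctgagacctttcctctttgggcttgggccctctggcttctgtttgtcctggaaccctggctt
Cat: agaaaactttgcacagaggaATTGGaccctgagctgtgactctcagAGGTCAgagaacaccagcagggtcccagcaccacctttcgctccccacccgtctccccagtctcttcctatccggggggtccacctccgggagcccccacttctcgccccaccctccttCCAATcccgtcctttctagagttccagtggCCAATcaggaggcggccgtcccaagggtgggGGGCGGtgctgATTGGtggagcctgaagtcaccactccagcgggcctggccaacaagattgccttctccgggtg
Acox3: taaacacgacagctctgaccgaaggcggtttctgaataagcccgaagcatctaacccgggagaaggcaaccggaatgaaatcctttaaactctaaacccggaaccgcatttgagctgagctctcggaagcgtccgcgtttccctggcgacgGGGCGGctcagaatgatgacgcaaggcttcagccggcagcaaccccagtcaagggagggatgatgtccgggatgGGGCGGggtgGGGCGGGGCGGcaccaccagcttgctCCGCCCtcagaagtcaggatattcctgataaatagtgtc
The Acoxl window holds 2 CCAAT matches, both on the opposite strand, and no GC box. The Cat window holds 4 CCAAT matches, 1 GC box and 1 AGGTCA. The Acox3 window holds 5 GC box matches, some overlapping, and none of the other motifs. The set of windows searched held 29 of the 35 members, all but Pex19, Pex2, Abcd2, Abcd4, Hsd17b4 and Amacr. Whether these members have a window outside the set searched was not tested. Each of the 29 members in the set has 1 window, the nearest to the start of its highest transcript. The 32851 windows searched were not chosen in this way, nor limited to genes of these data. The shares are thus of unlike sets. A GC box occurred in 22 of the 29 and in 35.7% of the 32851 windows searched. CCAAT occurred in 13 of 29, beside 37.4%, TATAAA in 2 of 29, beside 13.6%, and AGGTCA in 4 of 29, beside 16.3%. AGGTCANAGGTCA, a direct repeat that contains AGGTCA, occurred in 0 of 29, beside 0.0396% of all windows. These letters describe the windows and show no binding.

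Acox2, another branched-chain oxidase outside the 35, was named to set it beside Acoxl and Acox3 after its values had been seen. It had 8.42, 7.22 and 4.58 FPKM in bleomycin libraries and 3.93, 2.10 and 3.48 FPKM in PBS libraries. Every bleomycin value lay above every PBS value, but the change did not pass (0.89 ± 0.28, limma adjusted p = 0.0655). It passed with the highest transcript (0.0403), with library weights (0.0307) and without bleomycin replicate 3 (0.0387). Within a library, the log2 level of Acox3 minus that of Acoxl was 0.64, 0.05 and 1.76 in bleomycin libraries and -2.84, -3.10 and -2.48 in PBS libraries. Acox3 was thus the higher of the pair in each bleomycin library and the lower in each PBS library (mean difference 3.62, two-sided exact permutation p = 0.1, the smallest possible). This pair was also chosen after the values were seen. As Acox3 lay higher and Acoxl lower in every bleomycin library, their difference had to separate the groups. This p was thus fixed in advance and adds no evidence. The 14 leukocyte markers that rose did so in the same libraries as Acox3, and their part in its rise was not tested.

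**Figure D4:**
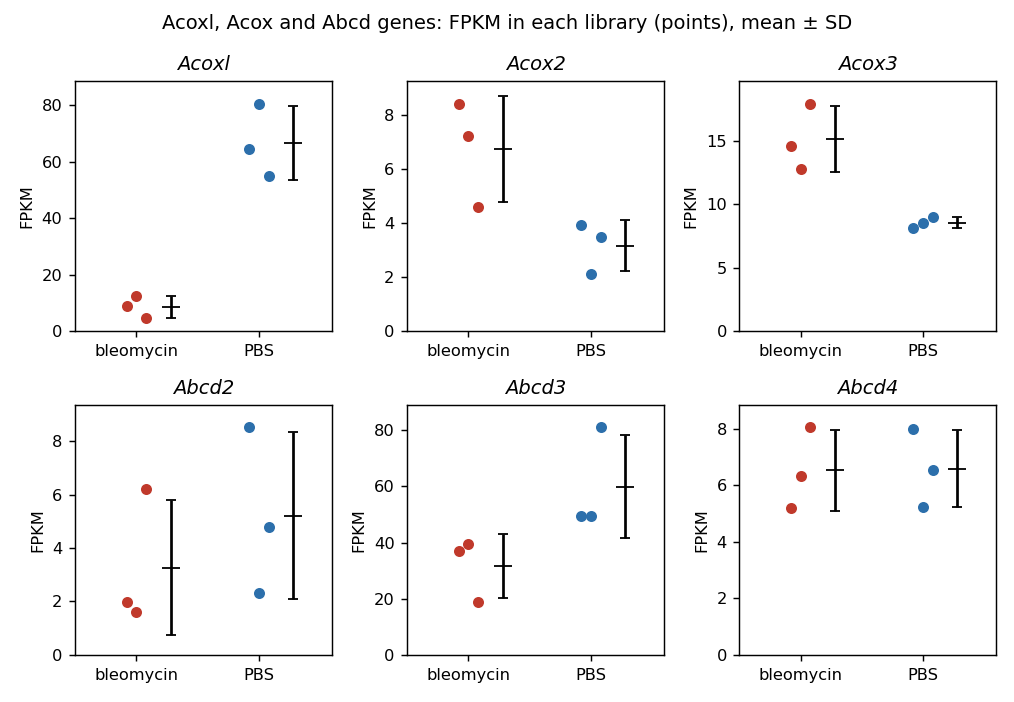
FPKM of Acoxl, Acox2 and Acox3 (top row) and of Abcd2, Abcd3 and Abcd4 (bottom row) in bleomycin libraries (red, left) and PBS libraries (blue, right), with the mean ± SD in black (n = 3 each). Acoxl and Abcd3 are lower and Acox2 and Acox3 higher in every bleomycin library than in any PBS library, while Abcd2 and Abcd4 overlap.

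Of 59 other peroxisomal genes listed and reported here, 41 were tested, and Gstk1 fell and 0 rose (limma, 8 with an unadjusted p under 0.05). That is 2.44% lower, beside 7.34% of all genes lower and 15.2% higher. Their median log2 fold change was -0.18. The groups did not overlap and lay lower in bleomycin libraries for 7 of the 41, beside 16.4% of all tested genes, and higher for 2, beside 27.2%. Gstk1, a glutathione transferase of peroxisomes and mitochondria, had 14.8, 19.0 and 14.7 FPKM in bleomycin libraries and 40.3, 36.1 and 36.2 FPKM in PBS libraries, and changed by -1.18 ± 0.16 (limma adjusted p = 0.00328), passing under all 17 alternatives. None of 9 tested genes of the other peroxins and of division passed in either direction (limma, 1 with an unadjusted p under 0.05). In mitochondrial fatty acid oxidation, the most similar pathway, 1 of 18 genes fell, 5.56% beside 7.34% of all genes, and 0 rose, beside 15.2% (limma, 4 with an unadjusted p under 0.05). The median was -0.26. That gene was Acaa2, the mitochondrial thiolase (-0.66 ± 0.19, limma adjusted p = 0.0482), whose call, with 1 library left out, stood only without PBS replicate 3 (otherwise 0.101 to 0.118). It was also lost with no filter, no variance trend, library weights or the highest transcript (limma adjusted p 0.0505 to 0.0622). Acaa2 has 1 listed transcript, so its own values were the same with the highest transcript. In this mitochondrial pathway 13 of 18 fold changes lay below 0, beside 43.9% of all tested genes. Without overlap, 9 of the 18 genes lay lower in bleomycin libraries and 1 higher, against 14 and 1 of the 35 members. Such separation was thus not particular to the peroxisomal members.

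Among regulators of peroxisome genes, 2 of 8 tested genes rose, 25.0% beside 15.2% of all genes. None of the tested genes fell, beside 7.34%. Pparg, a fatty acid receptor of macrophages, fat cells and AT2 cells, measured 9.0, 6.42 and 8.48 FPKM in bleomycin libraries and 2.35, 1.75 and 3.01 FPKM in PBS libraries (1.42 ± 0.22, limma adjusted p = 0.00540). This call was lost with the highest transcript alone (0.50, limma adjusted p = 0.189). Ppargc1b, a coactivator, averaged 1.29 ± 0.177 FPKM in bleomycin libraries and 0.410 ± 0.0358 FPKM in PBS libraries (SD, n = 3 each), and rose by 0.70 ± 0.15 (limma adjusted p = 0.0196). It reached 1 FPKM only in bleomycin libraries, so it passed the filter only through the group where it was high. It did not pass with quantile normalization (0.19, limma adjusted p = 0.407), nor when any of the PBS libraries or bleomycin replicate 2 was left out (0.0569 to 0.0679). Ppara, the classic activator of peroxisome genes in liver, was below the filter, listed at 0, 0.273 and 0.664 FPKM in bleomycin libraries and at 1.00, 0.885 and 1.13 FPKM in PBS libraries. It was not tested and so could not count as a fall, although every bleomycin value lay below every PBS value. Of 9 tested genes of plasmalogen synthesis and turnover outside the peroxisome, Lpcat2 rose, 11.1% beside 15.2% of all genes. Chpt1 fell, 11.1% beside 7.34%. Lpcat2, an acyltransferase known from inflammatory cells, had 9.91, 4.41 and 5.44 FPKM in bleomycin libraries and 0.619, 0.607 and 0.681 FPKM in PBS libraries (2.15 ± 0.28, limma adjusted p = 0.00282). Lpcat2, too, passed the filter only through the bleomycin libraries. Chpt1, a phosphotransferase of choline lipids, had 14.6, 11.7 and 17.7 FPKM in bleomycin libraries and 24.4, 22.7 and 26.9 FPKM in PBS libraries (-0.73 ± 0.19, limma adjusted p = 0.0360), a call lost without any 1 library but bleomycin replicate 3 (0.0705 to 0.106), with equal totals (0.0555) and with the highest transcript (0.0990). The part of the leukocytes in the rises of Pparg and Lpcat2 was not tested.

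**Figure D5:**
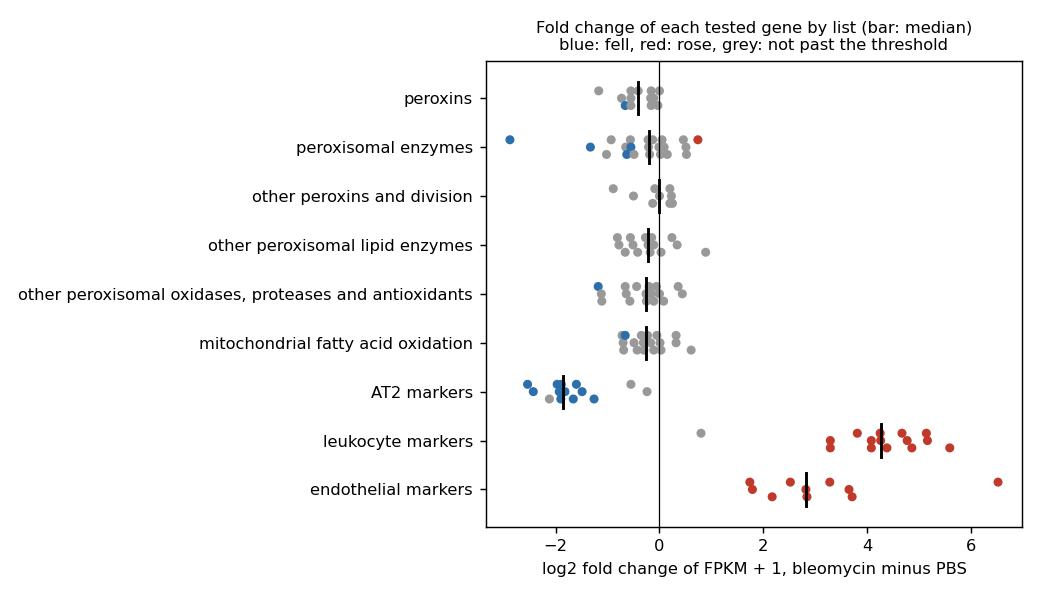
Log2 fold change of FPKM + 1, bleomycin minus PBS, of every tested gene (points) in each list, with the list's median as a bar, blue where a gene fell, red where it rose and grey where it did not pass. The peroxin median is -0.41 and that of the peroxisomal enzymes -0.20, beside -1.85 for AT2 markers, 4.26 for leukocyte markers and 2.83 for endothelial markers.

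The libraries did not contribute evenly in either group. Bleomycin replicate 3 had the lowest bleomycin value for 21 of the 35 members, replicate 2 for 10 and replicate 1 for 4. PBS replicate 1 had the highest PBS value for 21 members and the lowest for 5. The same counts over all tested genes were not made. Bleomycin replicate 3 also had the lowest sum of AT2 markers, 4110 FPKM, and the lowest listed FPKM total of the bleomycin libraries, 259607. PBS replicate 1 had the highest total of all, 300697. The summed level of the 22 enzymes and transporters was 477, 439 and 356 FPKM in bleomycin libraries and 734, 727 and 623 FPKM in PBS libraries, without overlap. Abundant genes weigh most in this sum, and Cat alone averaged 81.0 FPKM in bleomycin libraries and 204 FPKM in PBS libraries. Of the 22 fold changes 8 were above 0, and their median level averaged higher in bleomycin libraries. That of the 13 peroxins was 90.6, 81.1 and 85.4 FPKM in bleomycin libraries and 120, 101 and 113 FPKM in PBS libraries, also without overlap. In GENCODE M21, 16 of the 35 members share exon bases with another gene, and for Crot, Gnpat and Hacl1 that gene lies on the same strand. Of the 6 members that passed, Acox3 was the only one with such an overlap.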

How the data were processed

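Total RNA of AT2 preparations was extracted with TRIzol and made into libraries with a stranded KAPA kit, per the labels' protocols. HISAT2, StringTie, FastQC version 0.10.1 and build mm10 are named, without their settings, per the submitters' processing notes; the annotation is not given in the sources used. The authors deposited FPKM per transcript, 24647 protein-coding transcripts in each of 6 files. Whole reads could not be recovered: at most 14.4% of low values lay within 0.05 of a common step, so depth is unknown and no counting interval is given.

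FPKM of all transcripts with 1 gene ID were added up; where IDs share a symbol (9 cases), the one with the higher mean stands for it. Genes that reached 1 FPKM in 3 libraries or more were tested on log2(FPKM + 1), which understates changes of low genes, with limma 3.58.1 in R 4.3.3 (eBayes with trend, group only, two-sided, Benjamini-Hochberg over 12326 genes, threshold 0.05). Groups came from sample titles. The fit was tested on simulated data. The members and gene lists were chosen with earlier results of these data known. All members are named; library values are given for those that passed and for the highest of each role, and of other lists the genes that passed are named. Alternatives covered pseudocount, filter, scaling, transcript choice, variance model, library weights, the replicate block and each library left out, with the tested genes kept. Some genes of the other peroxisomal lists are not reported here, and the counts over those lists leave them out.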

Additional observations from a re-analysis of the deposited data

How the results depend on the processing

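Of the 6 calls among the 35 members, those of Acoxl and Cat remained under every alternative. A pseudocount of 0.1 or 5, no filter, a filter at 5 FPKM, equal totals, no variance trend, library weights and summing Acaa1a with Acaa1b kept the counts of 1 peroxin lower, 0 peroxins higher, 4 enzymes lower and 1 enzyme higher within 1.5 times. With equal medians 2 peroxins and 6 enzymes fell and 0 enzymes rose. Quantile normalization gave 3 peroxins and 6 enzymes lower and 0 enzymes higher. The highest transcript gave 0 peroxins lower and 0 enzymes higher, although Pex6, with 1 listed transcript, kept its own values there. The cause of these shifts was not tested. Across all genes 1475 rose and 1412 fell with equal medians and 1431 rose and 1441 fell with quantile normalization, against 1871 and 905. Leaving out 1 library at a time gave 0 to 1 peroxins lower, 2 to 3 enzymes lower, 0 to 1 enzymes higher and 1782 to 2630 genes called in all, with the lowest count without PBS replicate 3, then 1825 without bleomycin replicate 2 and 1843 without bleomycin replicate 1. The difference between the medians of peroxins and enzymes ranged from -0.27 to -0.11 over all alternatives.

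The replicate numbers do not pair the libraries: deviations of same-numbered libraries correlated by 0, 0.02 and 0.04, and 3 of 6 libraries correlated best with their own number. With the replicate number as a block 0 peroxins fell, 3 enzymes fell, 0 enzymes rose and 1922 genes were called. The 3 enzymes were Acoxl, Cat and Scp2, the last gained (limma adjusted p = 0.0256). Pex6 (0.0988), Hsd17b4 (0.0765), Amacr (0.0832) and Acox3 (0.0588) were no longer called, nor, outside the members, were Ppargc1b (0.0668), Chpt1 (0.0535) and Acaa2 (0.0597).

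Members that changed sign were all far from the threshold (limma adjusted p 0.534 or more). With equal medians Decr2, Acot8, Phyh and Prdx5 stood at -0.08, -0.11, -0.16 and -0.04, and with quantile normalization Decr2, Acot8 and Phyh at -0.11, -0.16 and -0.10. With equal totals Pex5, Pex2 and Abcd4 stood at 0.02, 0.01 and 0.02. With the highest transcript Pex5 and Pex26 stood at 0.10 and 0.15, and with library weights Pex5, Pex26 and Decr2 at 0.02, 0.06 and -0.14. With 1 library left out at a time, values ranged across 0 from -0.08 to 0.12 for Pex5, -0.30 to 0.15 for Pex2, -0.35 to 0.07 for Pex26, -0.15 to 0.12 for Abcd4, -0.27 to 0.07 for Acaa1b, -0.12 to 0.44 for Decr2, -0.18 to 0.18 for Acot8, -0.13 to 0.15 for Phyh and -0.01 to 0.39 for Prdx5. Unknown depth limits what can be said of members under 5 FPKM.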
